A study of Homo sapiens with 6 samples.

Results

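The Low-Chir culture was profiled for H3K4me3, the mark of active and poised promoters, and for H3K27me3, the mark laid down by Polycomb repressive complex. All peaks on chromosomes 1 to 22 of these 2 peak lists were taken, 42647 for H3K4me3 and 25370 for H3K27me3, which is 68017 of the 142800 peaks in the 4 lists of the series. The cells were neural progenitors made from WA-09 (H9), a human embryonic stem cell line, and were taken at day 11 of a protocol that yields midbrain dopamine neurons. The culture was started with SHH C25II, LDN, SB431542, the Rock inhibitor Y-27632 and 0.7 µM CHIR99021, which inhibits the kinase GSK3 and so switches on WNT signalling. LDN, SB431542 and SHH were taken away on day 7. From day 10 the medium held 3 µM CHIR99021 with BDNF, GDNF, ascorbic acid, TGFβ3 and dibutyryl cAMP. Several CHIR99021 concentrations were used from day 4, of which 0.7 µM was the lowest, and the labels do not state which of them Low-Chir received. Antibodies came from Abcam for H3K4me3 and from Millipore for H3K27me3. Each mark was measured in 1 library, called against the input of the same culture, so no difference below has a replicate check and no p-value is given.

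Where H3K4me3 and H3K27me3 occur together, a promoter is called bivalent, a state common at developmental regulator genes that are held silent but inducible. In the floor plate of the midbrain, SHH signalling and the forkhead factors FOXA1 and FOXA2 specify the progenitors of dopamine neurons. Regulators of other regions of the neural tube, such as the HOX genes of the hindbrain and spinal cord, are kept silent there by Polycomb. A bulk culture cannot tell whether both marks sit on the same chromosomes or in different cells.

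As examples of promoters behind the classes, the 250 bases upstream of the transcript start are printed for 5 genes, from RefSeq on GRCh38.p14, with each CG dinucleotide in capitals. FOXA1 (14, minus strand) stood for H3K4me3 alone, LHX2 (9, plus strand) for both marks at the start, and EN2 (7, plus strand) for H3K27me3 at the start with H3K4me3 far off. WNT3A (1, plus strand) stood for H3K27me3 alone and DDC (7, minus strand) for neither mark. These genes were chosen after their values had been seen.
FOXA1 chr14:37595250-37595499: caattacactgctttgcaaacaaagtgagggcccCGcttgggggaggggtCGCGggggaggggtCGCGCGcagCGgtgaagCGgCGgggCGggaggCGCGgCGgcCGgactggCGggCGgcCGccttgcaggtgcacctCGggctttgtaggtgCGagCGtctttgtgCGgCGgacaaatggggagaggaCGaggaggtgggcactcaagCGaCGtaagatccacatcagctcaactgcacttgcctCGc
LHX2 chr9:124011518-124011767: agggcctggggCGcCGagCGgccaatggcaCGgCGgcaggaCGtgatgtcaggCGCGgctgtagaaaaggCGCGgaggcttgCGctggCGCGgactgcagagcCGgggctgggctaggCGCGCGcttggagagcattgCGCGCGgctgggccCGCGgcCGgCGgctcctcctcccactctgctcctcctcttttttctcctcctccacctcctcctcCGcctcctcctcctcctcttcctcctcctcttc
EN2 chr7:155457879-155458128: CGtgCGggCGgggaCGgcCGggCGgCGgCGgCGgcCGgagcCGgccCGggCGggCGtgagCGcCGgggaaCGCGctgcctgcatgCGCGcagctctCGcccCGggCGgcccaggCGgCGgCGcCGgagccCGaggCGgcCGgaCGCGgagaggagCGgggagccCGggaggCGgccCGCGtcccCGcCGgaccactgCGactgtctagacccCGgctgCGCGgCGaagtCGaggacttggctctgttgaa
WNT3A chr1:228006748-228006997: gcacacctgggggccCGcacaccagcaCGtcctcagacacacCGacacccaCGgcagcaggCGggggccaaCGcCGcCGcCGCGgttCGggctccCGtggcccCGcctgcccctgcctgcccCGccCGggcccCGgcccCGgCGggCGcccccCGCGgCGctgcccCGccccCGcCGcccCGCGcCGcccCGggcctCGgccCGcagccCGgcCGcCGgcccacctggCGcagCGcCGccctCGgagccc
DDC chr7:50565406-50565655: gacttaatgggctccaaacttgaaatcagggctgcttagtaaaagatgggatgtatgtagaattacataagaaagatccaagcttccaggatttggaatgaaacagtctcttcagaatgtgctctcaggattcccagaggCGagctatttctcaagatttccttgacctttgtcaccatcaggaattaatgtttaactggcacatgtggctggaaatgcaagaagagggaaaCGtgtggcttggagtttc
The first 4 hold 26, 25, 45 and 38 CG dinucleotides, against 2 in the DDC promoter and a median of 11 (quartiles 3 and 23) over the 27305 promoters of the table. DDC does not stand for all genes with neither mark, since the DMBX1 and ZFP42 promoters hold 29 and 23. A promoter sequence was at hand for 90 of the 125 genes placed below. Housekeeping genes were included. Among the 65 of these in loci with both marks the median was 21 CG (quartiles 16 and 25), and among the 21 with H3K4me3 alone it was 18 (8 and 22). EN2 had the most CG of the 65, and FOXA1 lay above the upper quartile of the 21, so neither was typical. WNT3A was the only gene with H3K27me3 alone that had a sequence at hand. At least 20 CG were present in 36 of the 65 (55.4%) and in 10 of the 21 (47.6%), compared with 32.1% of all promoters. At least 1 CG was present in all 86 of these promoters and in 93.6% of the whole table. The medians of both classes thus lay above that of the table, while their quartiles overlapped and the lower quartile with H3K4me3 alone was below the table's median.

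Joining peaks of a list within 3 kb gave 15067 H3K4me3 regions and 6250 H3K27me3 regions, and regions of the 2 lists that shared at least 1 bp were merged into loci. Of the 18051 loci, 11834 carried H3K4me3 only (65.6%, exact 95% interval 64.9 to 66.3), 2935 carried both marks (16.3%, 15.7 to 16.8) and 3282 carried H3K27me3 only (18.2%, 17.6 to 18.8). Seen from H3K4me3, 3233 regions (21.5%, 20.8 to 22.1) met H3K27me3. Seen from H3K27me3, 2968 regions (47.5%, 46.2 to 48.7) met H3K4me3. These intervals reflect counting error alone, and neighbouring regions are not independent of each other. By length the contrast was wider. Loci with both marks held 15.02 of the 20.7 Mb under H3K27me3 peaks (72.6%) but 5.92 of the 37.4 Mb under H3K4me3 peaks (15.8%). In 2700 of the 2935 loci (92.0%) 1 region of each mark met. The locus with the most H3K4me3 regions was the HOXA cluster on chromosome 7 at 27128206 to 27298155, where 9 lay in 1 H3K27me3 region.

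The lists give no read totals. Reads at each summit were recovered from the fold enrichment and p-value, with a median of 17 for H3K4me3 (quartiles 13 and 30) and 20 for H3K27me3 (17 and 23). The low end of the background solved at these summits was 2.21 and 3.12 reads in the same order. A mark listed as absent may therefore lie below the calling threshold, and fold enrichments were compared within a list only.

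By the medians, H3K4me3 was narrower and weaker where H3K27me3 was present. The median span of H3K4me3 regions was 1789 bp with both marks (quartiles 822 and 3246) and 3052.5 bp alone (1663 and 4595). A lone peak made up 33.2% of the first group and 22.4% of the second. Spans of at least 10 kb were not rarer with both marks, at 83 regions (2.57%) against 229 alone (1.94%). The highest fold enrichment in a region had a median of 6.19 with both marks (quartiles 4.75 and 7.96) and 9.37 alone (6.99 and 11.5). This difference was present at matched width. Among regions of 2 to 4 kb the median was 7.16 for 908 regions with both marks and 9.71 for 4245 with H3K4me3 alone, and among regions of 4 to 8 kb it was 8.65 and 11.2. Under 0.5 kb both medians were 4.05. Sorted by fold into 10 equal bins, the share with both marks was 38.3% in the lowest bin, 46.5% in the next and 2.85% in the highest.

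H3K27me3 showed the opposite order. Its regions had a median span of 4195.5 bp beside H3K4me3 (quartiles 1940.5 and 7513.25) and 820 bp alone (259 and 3248). A lone peak made up 48.7% of the H3K27me3-only regions and 13.3% of those with both marks. Spans of at least 10 kb were found in 503 regions with both marks (16.9%) and in 194 without H3K4me3 (5.91%). The median top fold was 5.55 (quartiles 4.75 and 6.65) against 4.34 (3.88 and 5.21). At matched width the gap was smaller, with 5.94 against 5.47 for regions of 4 to 8 kb. The share with both marks was 18.6% in the lowest bin by fold and 77.9% in the highest. A long region also offers more bases to meet the other mark. The weight of this in the widths of H3K27me3 by class was not tested.

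**Figure D1:**
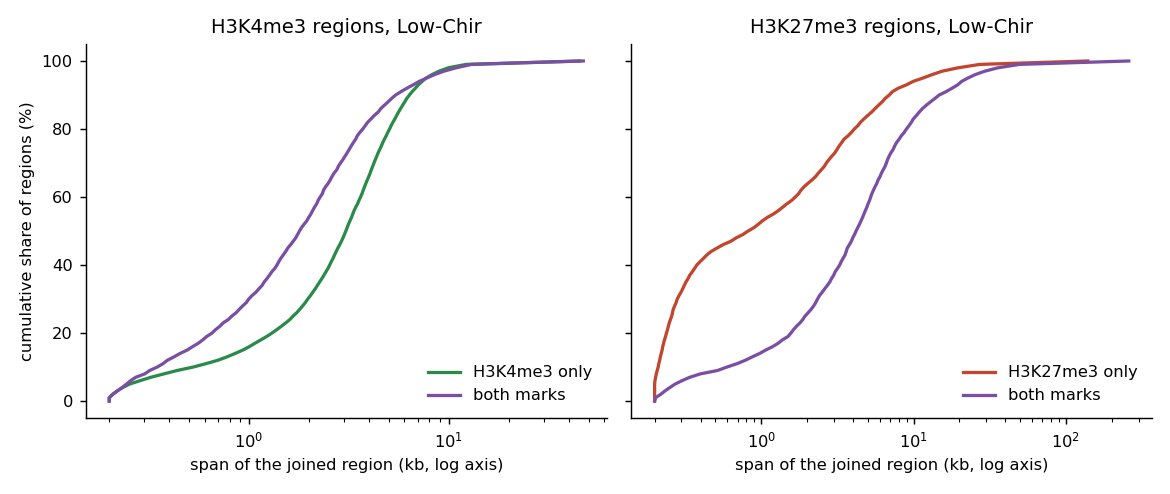
Cumulative share of regions (%) against the span of the joined region (kb, log axis) for H3K4me3 (left) and H3K27me3 (right), split by class. At the median, the curve for both marks lies left of H3K4me3 only (1789 and 3052.5 bp). It lies right of H3K27me3 only (medians 4195.5 and 820 bp). The H3K4me3 curves cross near the top, with 7765 bp for both marks and 7698 bp for H3K4me3 only at percentile 95.

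Width and bivalency were not related in a simple way for H3K4me3. The share with both marks was 39.3% (36.5 to 42.1) for spans of 0.5 to 1 kb, 17.6% (16.6 to 18.7) for 2 to 4 kb and 10.7% (9.74 to 11.7) for 4 to 8 kb. It was then 22.4% (19.1 to 25.9) for 8 to 16 kb and 26.7% (16.1 to 39.7) for the 60 regions of 16 kb or more. For H3K27me3 the share was 15.1% (13.5 to 16.9) under 0.5 kb, 56.3% (53.5 to 59.2) at 2 to 4 kb and 75.4% (70.6 to 79.8) at 16 kb or more.

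**Figure D2:**
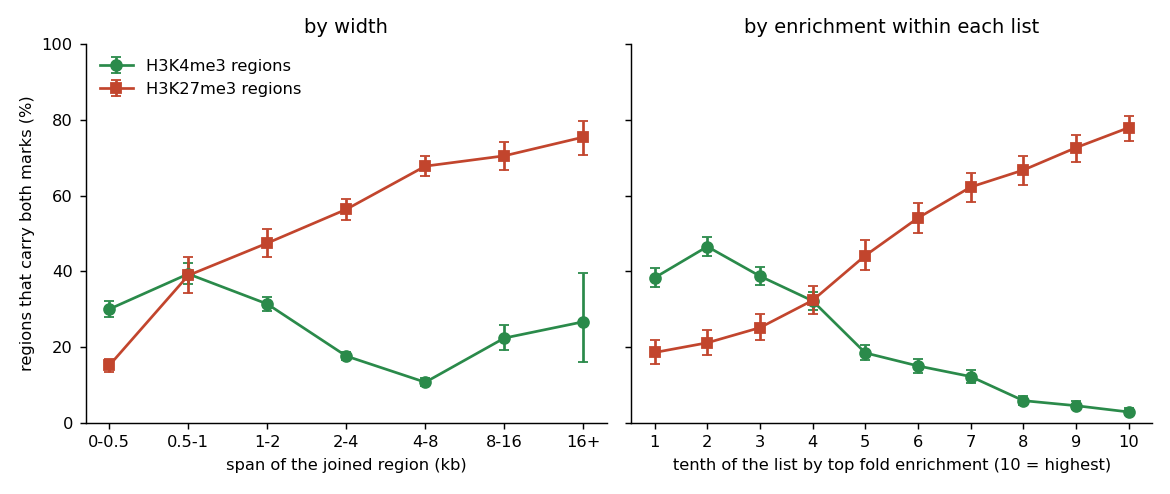
Percentage of regions that carry both marks, by span (left, kb) and by bin of top fold enrichment (right, 10 equal bins, 10 the highest). Points are shares and bars exact 95% intervals. H3K4me3 is lowest at 4 to 8 kb (10.7%) and in the highest bin (2.85%), whereas H3K27me3 reaches 75.4% and 77.9% at the right edges.

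Regions with H3K27me3 alone lay nearer to the other mark than regions with H3K4me3 alone did. For H3K4me3 only, the nearest H3K27me3 region lay at a median of 138 kb (quartiles 46.6 and 343 kb), and 6945 of 11834 (58.7%) were more than 100 kb away. For H3K27me3 only, the nearest H3K4me3 region lay at a median of 26.9 kb (6.80 and 87.6 kb), and 720 of 3282 (21.9%, 20.5 to 23.4) were within 5 kb, compared with 757 (6.40%, 5.96 to 6.85) of the H3K4me3-only regions. There were fewer H3K27me3 than H3K4me3 regions to be near to. The H3K4me3-only regions within 1 kb of H3K27me3, 435 in number, had a median span of 1384 bp and a median fold of 6.56. Those over 100 kb away had 3258 bp and 9.79.

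Where the marks met, H3K4me3 usually sat inside a longer H3K27me3 region. Among 3266 overlapping pairs of regions, H3K4me3 lay within H3K27me3 in 1856 (56.8%, 55.1 to 58.5), H3K27me3 lay within H3K4me3 in 358 (11.0%, 9.91 to 12.1) and 1052 (32.2%, 30.6 to 33.8) overlapped in part. In the first kind a median of 1209.5 bp of H3K4me3 lay in 7366.5 bp of H3K27me3. Of 1660 top H3K4me3 summits that lay within H3K27me3 regions spanning at least 4 kb, 34.9% (32.6 to 37.2) were 40 to 50% of the span from its nearer end and 7.41% (6.20 to 8.78) were 0 to 10% from it, although both bins take up the same length. Peaks themselves shared bases at 2843 of the 2935 loci (96.9%), with a median of 543 bp shared per locus.

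The strongest points of the 2 marks were mostly not at the same place within loci. Whether they lay farther apart than the region lengths alone would place them was not tested. Top summits of the 2 marks lay a median of 1440.5 bp from each other (quartiles 720 and 2729 bp), and 16.4% of pairs were within 500 bp. The top H3K4me3 summit fell in an H3K27me3 peak in 1599 of 3233 regions (49.5%), between H3K27me3 peaks of 1 region in 673 (20.8%) and outside the H3K27me3 region in 961 (29.7%). Around these summits, H3K27me3 peaks were present at 49.5% of regions at the summit, at 51.8% and 51.0% 1 kb to either side, and at 17.6% and 18.2% 5 kb to either side. At 0.25 kb to either side it was 46.0% and 44.8%. This H3K27me3 profile thus had a shallow dip on each side of the summit and fell away beyond the central 2 kb. Around top H3K27me3 summits of regions with both marks, H3K4me3 peaks were most frequent at the summit, at 35.5% of regions. They were present at 30.1% and 29.2% 0.25 kb to either side. At 1 kb the shares were 28.1% and 27.8%, and at 5 kb 5.26% and 4.95%.

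**Figure D3:**
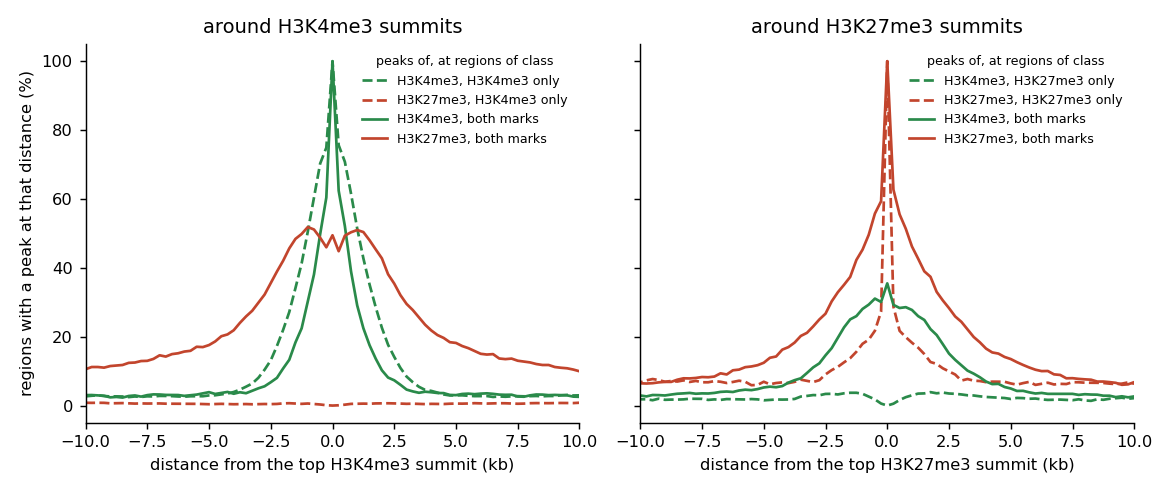
Percentage of regions with an H3K4me3 peak (green) or H3K27me3 peak (red) at each distance (kb) from the top H3K4me3 summit (left) or top H3K27me3 summit (right). Solid lines are regions with both marks and dashed lines regions with 1 mark. At regions with both marks, H3K27me3 stays between 44.8% and 51.8% from the H3K4me3 summit out to 1 kb on either side. The mark whose summit is used is at 100% at distance 0 by construction.

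Genes were then read against the classes. Of 130 listed genes, 125 could be placed on hg19, and a gene took the class of the locus within 2 kb of its transcript start. Lengths given for a gene are those under peaks in its locus, and the longest and shortest loci of a list are by the sum over both marks. Among the 114 developmental genes 85 lay in loci with both marks (74.6%), against 16.3% of all loci. H3K4me3 only held 18 (15.8%, against 65.6%), H3K27me3 only held 6 (5.26%, against 18.2%) and 5 had no locus. The 85 genes occupied 76 separate loci, since clustered genes share a domain. All loci include sites that are not promoters, so the 2 populations differ in kind. The lists were also chosen with earlier results of these data known, so the contrast describes these genes and is not a test. At 14 of the 85 genes no H3K4me3 peak, and at 4 no H3K27me3 peak, lay within 2 kb of the start itself. Counted by the peaks in that 4 kb window alone, 67 genes had both marks, 22 H3K4me3 only, 20 H3K27me3 only and 5 neither.

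**Figure D4:**
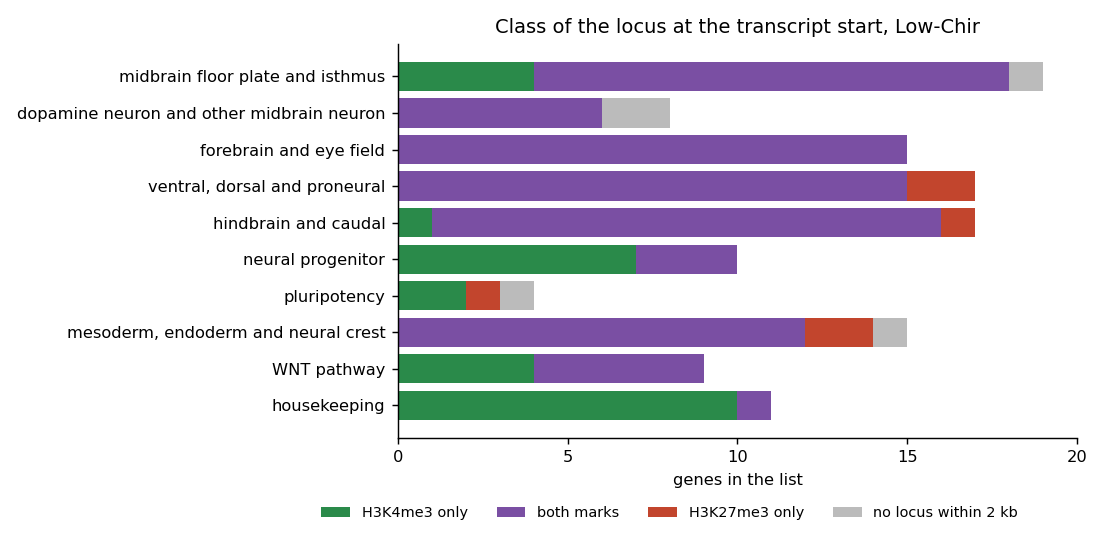
Number of genes per list by the class of the locus within 2 kb of the transcript start. Purple (both marks) fills the bar of the 15 forebrain genes, and green (H3K4me3 only) makes up 7 of 10 neural progenitor and 10 of 11 housekeeping genes.

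The housekeeping genes served as a check on their own positions, not on those of the developmental genes. H3K4me3 lay at the start of all 11, and 10 had it alone, from HSP90AB1, a chaperone, with 3.87 kb to PCNA, the sliding clamp of DNA replication, with 10.9 kb. At B2M, the light chain of MHC class I, 0.246 kb of H3K27me3 lay beside 2.38 kb of H3K4me3.

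Of 10 neural progenitor genes, 7 carried H3K4me3 alone (70%, near the 65.6% of all loci). The other 3 were in loci with both marks (30%, against 16.3% of all loci). SOX2, a core factor of neural progenitors, had 18.8 kb of H3K4me3 on chromosome 3 at 181426062 to 181448385 with a top fold of 20.2, the fourth longest of the 11834 loci of its class, and the nearest H3K27me3 region was 1034 kb from its start. SOX11 had 12.2 kb, the adhesion gene CDH2 8.57 kb, VIM and NES, which encode intermediate filaments, 5.92 and 4.04 kb, the Notch effector HES1 4.94 kb and the receptor gene NOTCH1, the shortest, 3.42 kb. H3K4me3 lay at the start of all 5 fixed markers of the labelled cell type, SOX1, SOX2, NES, VIM and CDH2. This does not set the markers apart. Of all 114 developmental genes, 67 had both marks and 22 H3K4me3 only within 2 kb of the start. All 15 forebrain genes had H3K4me3 there too. SOX1 was in the class with both marks, with 9.73 kb of H3K4me3 and 15.8 kb of H3K27me3, of which 314 bp lay within 2 kb of the start. The Notch ligand gene DLL1 had 7.39 and 0.682 kb. At the Notch effector HES5, 4.86 kb of H3K27me3 stood beside 0.425 kb of H3K4me3.

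Floor plate genes were split between H3K4me3 alone and both marks. FOXA2, on chromosome 20 at 22541675 to 22568107, had 22.5 kb of H3K4me3 in 10 peaks with a top fold of 14.1, the second longest of the 11834 loci with H3K4me3 only. FOXA1, on chromosome 14 at 38052644 to 38070562, had 17.6 kb in 3 peaks, with rank 5 in the same class. The nearest H3K27me3 lay 446 kb from the FOXA2 start and 612 kb from that of FOXA1. SHH, the ligand secreted by the floor plate, had 8.81 kb of H3K4me3 on chromosome 7 at 155595006 to 155606391, with H3K27me3 15.2 kb away from its start. CORIN, a serine protease gene used as a floor plate surface marker, had 2.88 kb. At LMX1A, a homeobox determinant of midbrain dopamine progenitors, 6.68 kb of H3K4me3 stood beside 0.972 kb of H3K27me3. Its locus was the shortest of the list among those with both marks. Within 2 kb of the LMX1A start 34 bp were under H3K27me3, and 1 other locus also reached into this window. LMX1B had 7.21 and 13.03 kb and MSX1 11.2 and 20.2 kb, with both marks within 2 kb of the start. OTX2, which marks forebrain and midbrain, had 14.98 kb of H3K4me3 and 14.2 kb of H3K27me3, and OTX1 8.94 and 14.9 kb.

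At 6 of the 7 genes EN1, EN2, WNT1, PAX2, PAX5, PAX8 and FGF8, which pattern the isthmus at the border of midbrain and hindbrain, H3K27me3 covered more of the window around the start than H3K4me3 did, and EN1 was the exception. EN1, on chromosome 2 at 119585593 to 119620873, held 19.04 kb of H3K4me3 and 28.0 kb of H3K27me3. EN2, its paralog, lay in an H3K27me3 domain of 82.1 kb, the longest of the list, with 1.24 kb of H3K4me3. At its start 3431 of 4000 bp were under H3K27me3, and the nearest H3K4me3 was 51.6 kb away. WNT1, the isthmic WNT ligand, had 15.01 kb of H3K27me3 and 1.02 kb of H3K4me3, which began 6.59 kb from the start. PAX2 had 56.3 kb of H3K27me3 and 5.16 kb of H3K4me3, PAX5 20.7 and 3.26 kb, and PAX8 15.7 and 0.679 kb. FGF8 had 6.98 kb of H3K27me3 and 4.41 kb of H3K4me3. BARHL1 and BARHL2, homeobox genes of the diencephalon and midbrain, had 16.9 and 33.1 kb of H3K27me3, with 0.241 and 8.00 kb of H3K4me3. No locus lay within 2 kb of the DMBX1 start that was used, with H3K27me3 4.26 kb and H3K4me3 16.8 kb away. Of the 19 genes, 14 were in loci with both marks (73.7%, near the 74.6% of all 114 developmental genes). H3K4me3 only was found at 4 (21.1%, against 15.8%) and H3K27me3 only at 0 (against 5.26%).

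**Figure D5:**
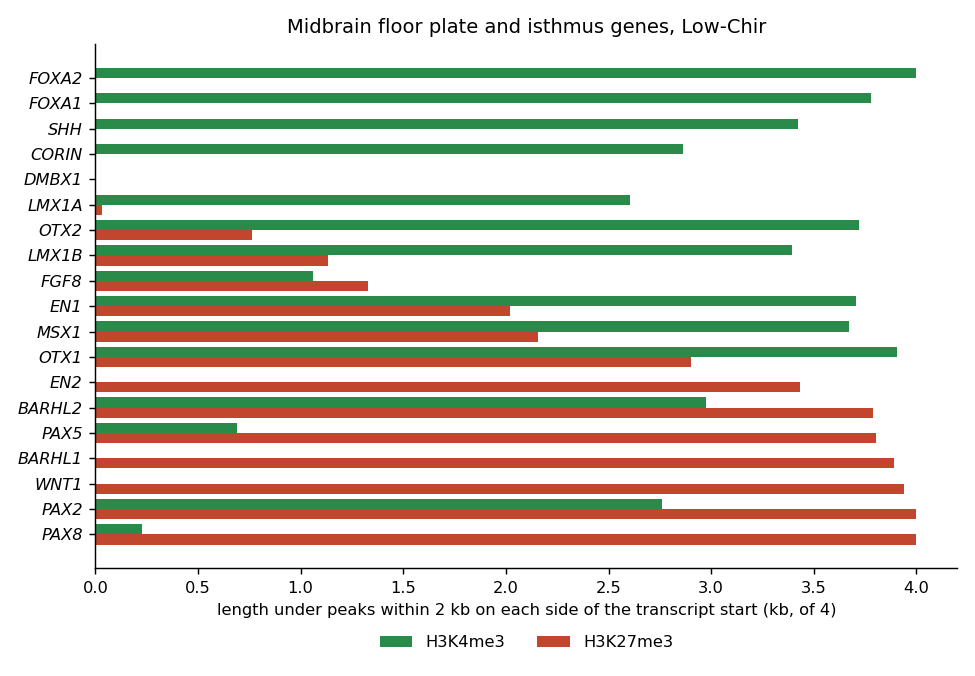
Length under H3K4me3 (green) and H3K27me3 (red) peaks within 2 kb on each side of the transcript start (kb) for the 19 midbrain floor plate and isthmus genes, ordered by H3K27me3. FOXA2, FOXA1, SHH and CORIN have H3K4me3 alone, while EN2, WNT1 and BARHL1 have H3K27me3 alone in this window.

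Genes of dopamine neurons were marked in different ways on day 11. NR4A2, a nuclear receptor of dopamine neurons, had 3.99 kb of H3K4me3 and 6.62 kb of H3K27me3, and PITX3 had 5.11 and 16.4 kb. TH and DDC, the enzymes of dopamine synthesis, had neither mark within 2 kb of the start. For DDC the nearest H3K4me3 was 4.49 kb away, and for TH 206 kb. Regulators of other midbrain neurons lay in domains with both marks. H3K27me3 covered 24.5 kb at GATA2, 34.0 kb at GATA3 and 23.4 kb at POU4F1. These lengths were within the quartiles of 14.9 and 35.4 kb for all 85 developmental genes with both marks. In all, 6 of the 8 genes had both marks (75%, near the 74.6% of all 114 developmental genes).

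All 15 forebrain and eye field genes were in loci with both marks (100%, against 74.6% of all 114 developmental genes). Their medians were 32.6 kb of H3K27me3 and 3.58 kb of H3K4me3. DLX5 had the longest locus, with 40.8 kb of H3K27me3 and 5.59 kb of H3K4me3. SIX6 had the shortest, with 16.0 and 1.31 kb. PAX6, a regulator of eye and dorsal forebrain, had the longest H3K4me3 of the list, 12.7 kb beside 33.4 kb of H3K27me3, on chromosome 11 at 31818621 to 31856015. All 15 had both marks within 2 kb of the start, against 67 of all 114 developmental genes. In that window H3K27me3 covered a median of 4000 bp and H3K4me3 1308 bp.

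Of 17 ventral, dorsal and proneural genes, 15 were in loci with both marks (88.2%, against 74.6% of all 114 developmental genes). The other 2 had H3K27me3 only (11.8%, against 5.26%). NKX2-2, a ventral gene induced by SHH, had 4000 of 4000 bp around its start under H3K4me3 and 0 under H3K27me3, and its 12.2 kb of H3K27me3 began 2.17 kb away. NKX6-1, also ventral, had 3479 bp of H3K4me3 around the start, and 3.71 kb of H3K27me3 in its locus, the shortest of the list, began 2.05 kb away. ZIC2 had 21.9 kb of H3K4me3 with H3K27me3 6.30 kb from the start. These 3 were the genes of the list with H3K4me3 alone within 2 kb. OLIG2, a ventral gene of motor neuron and oligodendrocyte progenitors, had both marks there, with 19.2 kb of H3K27me3 and 1.54 kb of H3K4me3 in its locus. PAX3 and PAX7, markers of the dorsal neural tube, had 34.9 and 43.7 kb of H3K27me3 with 4.95 and 0.608 kb of H3K4me3. ZIC1 and ZIC4 shared a domain of 72.8 kb of H3K27me3 and 9.34 kb of H3K4me3, the longest of the list. Among proneural factors, NEUROG2 had 19.4 kb of H3K27me3 and 5.02 kb of H3K4me3, and NEUROG1 24.6 and 0.435 kb. WNT3A, a dorsal WNT ligand, had H3K27me3 only, over 8.96 kb.

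The HOX clusters formed the longest domains of the culture. HOXC, on chromosome 12 at 54287049 to 54545239, had 232 kb under H3K27me3 and 2.51 kb under H3K4me3. HOXA had 168 and 9.36 kb. HOXD, on chromosome 2 at 176924118 to 177063684, had 134 and 7.63 kb, and HOXB, on chromosome 17 at 46599831 to 46736983, had 132 and 4.69 kb. These were the first 4 of the 2935 loci with both marks by covered length. HOXB13 lay in a separate domain of 58.1 kb. Within HOXA, H3K4me3 covered 621 bp around the start of HOXA2, an anterior gene, and 0 bp around HOXA9 and HOXA13. The other clusters did not share this order, with 0 bp around the anterior genes HOXB1 and HOXD3 and 338 and 670 bp around the posterior genes HOXB13 and HOXD13. At the Iroquois genes H3K4me3 covered most of the window around the start, with 3829 of 4000 bp at IRX1, 3498 bp at IRX2 and 3538 bp at IRX3. By locus, IRX2 had 6.10 kb of H3K4me3 only, IRX1 6.73 kb beside 6.78 kb of H3K27me3 and IRX3, the shortest locus, 6.91 kb beside 3.72 kb. CDX2 had 35.4 kb of H3K27me3 and 1.12 kb of H3K4me3, and CDX1 6.37 kb of H3K27me3 only. In all, 15 of these 17 hindbrain and caudal genes were in loci with both marks (88.2%, against 74.6% of all 114 developmental genes). Within 2 kb of the start, 8 of the 17 had H3K27me3 alone, against 20 of all 114.

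Genes of mesoderm, endoderm and neural crest mostly lay in loci with H3K27me3, as the developmental genes did in general. Of these 15 genes, 12 had both marks (80%, against 74.6% of all 114 developmental genes). H3K27me3 only was found at 2 (13.3%, against 5.26%). TBX5, a heart and limb factor, had the longest locus, with 65.0 kb of H3K27me3 and 0.318 kb of H3K4me3. MIXL1 had the shortest, with 1.601 and 1.12 kb. TBXT had 10.8 and 0.482 kb, EOMES 21.02 and 3.56 kb, GSC 12.9 and 3.10 kb and GATA6 20.4 and 3.17 kb. MYOD1, the muscle determinant, and SOX10, a neural crest factor, had H3K27me3 only, over 7.70 and 2.40 kb, and no locus lay at MEOX1. FOXD3 and TFAP2A, also neural crest factors, had both marks in their loci, with 18.05 and 1.93 kb at FOXD3 and 48.5 and 4.84 kb at TFAP2A.

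Of the pluripotency genes, POU5F1 had H3K27me3 only, over 1.74 kb, with the nearest H3K4me3 10.6 kb from its start. ZFP42 had neither mark. LIN28A, an RNA-binding protein also expressed in neural progenitors, had 6.34 kb of H3K4me3 with a top fold of 10.4. DPPA4 had 2.98 kb of H3K4me3 with a top fold of 4.49, below the lower quartile of 6.99 for regions with H3K4me3 only.

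WNT pathway genes were divided. CTNNB1, which encodes β-catenin, and the feedback inhibitors AXIN2 and NKD1 had H3K4me3 only, over 5.08, 7.53 and 3.43 kb. RNF43, a ubiquitin ligase that removes WNT receptors, had a lone H3K4me3 peak of 0.223 kb with a fold of 3.52. Both marks lay at the other 5 (55.6%, against 74.6% of all 114 developmental genes). SP5, a target of WNT signalling, had the longest locus with 9.83 kb of H3K27me3 and 5.84 kb of H3K4me3. The secreted inhibitor DKK1 had 2.33 and 2.27 kb, the receptor gene LGR5 5.38 and 2.00 kb, LEF1 3.63 and 6.92 kb, and TCF7, the shortest, 2.64 and 1.77 kb. The H3K27me3 lengths here were below the median of 21.98 kb for all 85 developmental genes with both marks.

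Some of the longest loci lay outside the lists, and genes added for them were chosen after the values had been seen. The longest with H3K4me3 only was on chromosome 10 at 21782121 to 21827166, with 39.5 kb in 14 peaks, and it holds the start of MLLT10. ZEB2, a zinc finger gene of neural development, was sixth of this class with 17.3 kb and a top fold of 18.3. The others of the first 10 lay on chromosome 1 at 154926748 to 154959022 (19.04 kb) and 153926728 to 153959261 (16.8 kb), chromosome 19 at 56146395 to 56169601 (17.3 kb), chromosome 6 at 33376978 to 33401249 (17.04 kb) and chromosome 17 at 47067979 to 47091453 (16.8 kb). The first of these held its 19.04 kb in 32 peaks, against 10 at FOXA2 and 3 at FOXA1. Long H3K4me3 loci thus comprised both nearly unbroken domains and runs of separate peaks.

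Among loci with both marks, NFIX, a nuclear factor I gene, had 108 kb of H3K27me3 with 1 H3K4me3 peak of 0.336 kb. The metallothionein gene MT2A lay in a domain of 75.6 kb with 2.43 kb of H3K4me3 on chromosome 16 at 56637894 to 56719700. Loci on chromosome 6 at 150238881 to 150340863 and at 28721484 to 28801272 had 86.1 and 72.1 kb of H3K27me3 with 7.63 and 11.7 kb of H3K4me3. The longest locus with H3K27me3 only lay on chromosome 15 at 89894419 to 90033488, where 78 peaks covered 109 kb. It was followed by chromosome 2 at 121272131 to 121352806 (52.2 kb), chromosome 19 at 1731181 to 1797176 (51.3 kb), chromosome 2 at 121186831 to 121267823 (50.6 kb) and at 121776421 to 121837667 (44.6 kb). Chromosome 1 at 156369966 to 156422639 had 38.9 kb and chromosome 15 at 69855737 to 69907470 had 32.7 kb. Starts of FEV (chromosome 2), a regulator of serotonin neurons, ABLIM1 and LBX1 (chromosome 10), a dorsal spinal cord factor, lay in the others, with 38.1, 37.1 and 36.1 kb. Apart from that of FEV, the loci named on chromosome 2 lay within 1 Mb of each other.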

How the data were processed

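Peaks came from the authors' deposited narrowPeak lists on hg19, made per library against the input of its culture, per the peak names. Reads were handled with cutadapt 1.6, BWA 0.7.12 and Picard, per the submitters' processing notes. The peak caller was not given in the sources used here. Per peak, the authors deposited a fold enrichment (ratio), the −log10 of p and of q, a summit offset and a score. That deposited score is 10 times −log10 q without its decimals and was left aside. No read total was at hand.

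Here, peaks on chromosomes 1 to 22 were joined within 3 kb and classed as described (Python 3.11.15, numpy 2.4.6, pandas 2.3.3, scipy 1.17.1, matplotlib 3.10.9). Shares carry exact (Clopper-Pearson) 95% intervals. Summit reads were solved from fold, taken as (reads + 1) over (background + 1), and a Poisson p, which returned the −log10 p within 0.01 for 100% of peaks. The class code was tested on simulated data and returned all 3000 planted loci.

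No hg19 annotation was used here. Transcript starts on hg19 were taken from general knowledge of that build, not from a file, and may be off or belong to another transcript. A gene was kept when its length was within 1 kb or 10% of that in RefSeq's GRCh38.p14 table, or its spacing to another listed gene on the chromosome was within 2 kb of that table's. By length alone 102 of 130 passed, with spacing 125. WNT5A, NKX6-2, GBX2, NANOG and TDGF1 were left out, and all 10 added genes passed. Coordinates were not converted. Values are given for the longest and shortest locus in a list's commonest class, genes outside that class and the first 10 loci per class, with further members as examples. Some listed genes are counted but not reported here by name. Members and lists were chosen with earlier results of these data known. Alternatives for joining, overlap, peaks used, width, fold, spacing and windows were computed.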

Additional observations from a re-analysis of the deposited data

How the results depend on the processing

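The share of regions with both marks moved under every rule tried except joining within 5 kb for H3K4me3 (21.7%, against 21.5%). For H3K4me3 and H3K27me3 in turn it was 13.7% and 20.9% without joining, 19.8% and 35.3% with joining within 1 kb, and 22.4% and 56.9% within 10 kb (51.9% for H3K27me3 within 5 kb). It was 14.96% and 33.6% with 500 bp shared, 20.8% and 46.0% when peaks themselves shared 1 bp, 24.3% and 54.2% with the other mark within 1 kb, 11.8% and 32.3% with the top 50% of each list, and 17.9% and 36.4% with the same number of peaks. Loci with both marks numbered 1425 with the top 50%, and between 2086 and 4130 under the other 8 rules. Directions by class held under all alternatives run. The median H3K4me3 width with both marks over that without was 0.669 when joined within 10 kb and 0.643 with the top 50%, against 0.586. For H3K27me3 the ratio was 7.37 within 1 kb, 3.30 within 10 kb and 2.40 with the top 50%, against 5.12. Fold ratios were 0.712 and 1.14 with the top 50% and 0.851 and 1.07 by the median peak, against 0.661 and 1.28. From summits, 4.85% and 18.01% of regions with 1 mark lay within 5 kb of the other. Developmental genes with H3K27me3 only numbered 20 with the top 50%, and 20 by the peaks within 2 kb of the start, a rule chosen after seeing the data, against 6. No paired analysis was possible because only 1 library exists here for each mark.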

Other observations

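The share of H3K4me3 regions that carried both marks varied among chromosomes. It was lowest on chromosome 19, at 140 of 1043 regions (13.4%, exact 95% interval 11.4 to 15.6), and next lowest on chromosome 16, at 98 of 611 (16.0%, 13.2 to 19.2). It was 26.8% (19.97 to 34.5) of 153 regions on chromosome 21, the highest, and 26.7% (21.5 to 32.5) of 262 on chromosome 18. The H3K27me3 regions with both marks ranged from 36.6% (29.2 to 44.5) of 164 on chromosome 22 to 57.6% (52.1 to 62.8) of 344 on chromosome 6. Peaks outside chromosomes 1 to 22, 1375 for H3K4me3 and 355 for H3K27me3, were not analysed here.

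Of 89 regions with at least 10 kb under H3K4me3 peaks, 24 (26.97%) carried H3K27me3, against 21.5% of all 15067 H3K4me3 regions. Limits of 4, 6 and 8 kb give larger sets that include these 89. There the share was 10.7% (261 of 2440), 16.5% (102 of 617) and 20.5% (41 of 200). At 15 kb or more it was 22.2% (4 of 18). No interval is given for these shares, and the sets at the highest limits are small. Among listed genes whose loci held at least 10 kb under H3K4me3 peaks, ZIC2, EN1, OTX2, NKX2-2, PAX6 and MSX1 had both marks, whereas FOXA2, SOX2, FOXA1, SOX11 and PCNA had H3K4me3 only.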
